A study of Mus musculus with 6 samples.

Results

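The inflammasome and interleukin-1 genes described here are the 10 genes Nlrp3, Nlrc4, Aim2, Pycard, Casp1, Casp4, Il1a, Il1b, Il18 and Il1rn, chosen by symbol. All 10 had a row among the 35237 genes of the Cufflinks table, and all 10 were also found by symbol among the 36536 entries of the ALEXA-Seq table. They were measured by RNA-Seq in 6 libraries from C57BL/6 mice at 6 weeks of age, 3 from bone marrow monocytes (BMDM), sorted as CD11b+ CD45high CD115+ Ly6G- cells, and 3 from brainstem microglia (BSM), sorted as CD11b+ CD45low CD115low Ly6G- cells. Each library was made from a pool of mice. By the sample labels and the study's quality table, replicate 1 of each cell type was male and replicates 2 and 3 were female. The Results text of the study speaks of male mice. No allele or treatment is given for the mice in the labels. The values are levels of transcript, and cleaved caspase or secreted cytokine was not measured here.

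Inflammasomes are protein complexes of the cytosol. A sensor such as NLRP3, NLRC4 or AIM2 recognizes a sign of infection or damage and, in most cases through the adaptor ASC (encoded by Pycard), gathers caspase-1, which cleaves the precursors of interleukin-1 beta and interleukin-18 into their active forms and opens the membrane through gasdermin D. Interleukin-1 alpha signals through the same receptor as interleukin-1 beta but is active without that cleavage, and the receptor antagonist encoded by Il1rn occupies the receptor without signaling. Microglia and monocytes are both regarded as main sources of interleukin-1 in the inflamed brain.

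Il1a and Il1b lie close together on mouse chromosome 2. Their promoter windows, from 250 bases before to 50 after the start of transcription (RefSeq, GRCm38.p6), are shown because the data give one of them high and the other very low transcript in BSM. The Il1a window lies at chr2:129309923-129310222 and the Il1b window at chr2:129371090-129371389, both read from the minus strand. Capitals mark every match, on either strand, to TATAAA (the TATA box), TGANTCA (the AP-1 motif) and GAGGAA (the core of the PU.1 motif), and the matches do not overlap.
Il1a: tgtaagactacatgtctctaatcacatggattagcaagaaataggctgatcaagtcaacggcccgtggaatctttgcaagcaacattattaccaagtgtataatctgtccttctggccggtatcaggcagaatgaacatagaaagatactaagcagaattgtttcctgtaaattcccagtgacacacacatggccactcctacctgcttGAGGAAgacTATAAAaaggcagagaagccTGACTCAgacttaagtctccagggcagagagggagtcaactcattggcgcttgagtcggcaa
Il1b: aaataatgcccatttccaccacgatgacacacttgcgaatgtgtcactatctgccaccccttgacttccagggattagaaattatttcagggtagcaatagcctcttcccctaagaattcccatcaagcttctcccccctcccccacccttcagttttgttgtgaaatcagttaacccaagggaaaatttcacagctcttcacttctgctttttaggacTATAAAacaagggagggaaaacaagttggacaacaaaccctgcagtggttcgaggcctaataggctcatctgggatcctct
The Il1a window held a TATA box starting at base -32, an AP-1 match starting at -12 and a PU.1 core starting at -41, whereas the Il1b window held a TATA box starting at -31 and neither of the other matches. Promoter windows of the 10 genes numbered 14. TATAAA was present in 4 of these 14 against 13.6% of 32851 mouse windows of the same length, TGANTCA in 2 against 7.81% and GAGGAA in 5 against 28.3%. Unlike those of Il1a and Il1b, the TATAAA matches of Il18 and Il1rn were on the other strand, from base -175 and from base 15. The kappaB motif was found in 3 windows, of Casp4 and Nlrp3, against 8.46%. The Casp4 windows overlapped and held the same matches. A match is only a description of these letters and no binding was measured.

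FPKM, fragments scaled by the length of the transcript and by the number of mapped reads, were compared between the cell types with limma on log2(FPKM + 1) across the 6364 genes that reached an FPKM of 3 in at least 1 library, and p-values were adjusted over all of these by the Benjamini-Hochberg method. Log2 fold changes are BMDM minus BSM, so that positive values stand for higher levels in BMDM. The level of all genes together was not the same in the cell types: the FPKM of all genes summed to 163199 to 194184 in BMDM but only 68288 to 75021 in BSM, and the median log2 fold change of the tested genes was 0.81. Each difference was therefore also read against that median and after 4 scalings between libraries (upper quartile, quantile normalization, the same sum of FPKM, and the same sum without mitochondrially encoded genes). As deposited, 54.5% of the tested genes passed an adjusted p of 0.05, 45.3% in favor of BMDM and 9.22% in favor of BSM, and in 66.8% the libraries of one cell type all lay above those of the other. With the same sum of FPKM 973 calls favored BMDM and 1582 favored BSM, as against 2883 and 587 as deposited. The second table, from ALEXA-Seq, holds another quantification of the same libraries, in which 47.9% of as many genes, taken by their highest value, passed the test.

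The labels of the sorted cells were checked against marker genes. All 9 microglia markers were higher in every BSM library than in any BMDM library, with sums of 1230 to 1467 FPKM in BSM and 37.0 to 42.4 in BMDM, and all 6 monocyte markers were higher in BMDM, with sums of 1557 to 3025 against 4.72 to 6.97 and Ly6c2 at 0 in BSM. Of 12 granulocyte markers, 10 lay higher in BMDM, with sums of 71.2 to 362 FPKM in BMDM (the highest in replicate 2) and 11.5 to 20.2 in BSM, where 6, including Ly6g, Elane and Camp, were at 0. Ly6g was also at 0 in BMDM replicates 1 and 3 and at 0.293 in replicate 2. The largest part of the BMDM sums was Mpo, at 32.7, 181 and 67.1 FPKM in replicates 1 to 3. Csf3r, which overlapped between the cell types, made up nearly all of the BSM sums, at 20.2, 15.1 and 11.5 FPKM. Of 8 immediate early genes 5 were higher in every BSM library than in any BMDM library, and the 8 summed to 172 to 375 FPKM in BMDM and to 781 to 1266 in BSM, most of it from Zfp36. The 6 perivascular macrophage markers summed to 113 to 159 FPKM in BMDM and 2.08 to 4.79 in BSM, but F13a1 alone made up 111 to 157 and 0.253 to 1.54 of these sums, and of the other 5 markers 4 overlapped between the cell types. Markers of astrocytes and neurons summed to at most 0.249 FPKM in any library, and those of endothelial cells to between 1.31 and 2.83. The sums were 0.501 to 8.50 FPKM in BMDM and 0 to 0.0793 in BSM for lymphocytes, 5.58 to 8.62 and 0.927 to 1.21 for oligodendrocytes, and 6.77 to 38.4 and 0 to 0.158 for erythroid cells. BSM replicate 1 stood apart from the other BSM libraries. Its RNA was the least concentrated and had the lowest integrity in the study's quality table, and 472 of the 6364 tested genes were listed at 0 in it, against 115 and 93 in BSM replicates 2 and 3 and between 51 and 96 in BMDM. It is the only male BSM pool, so that sex, RNA quality and library cannot be told apart there.

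**Figure D1:**
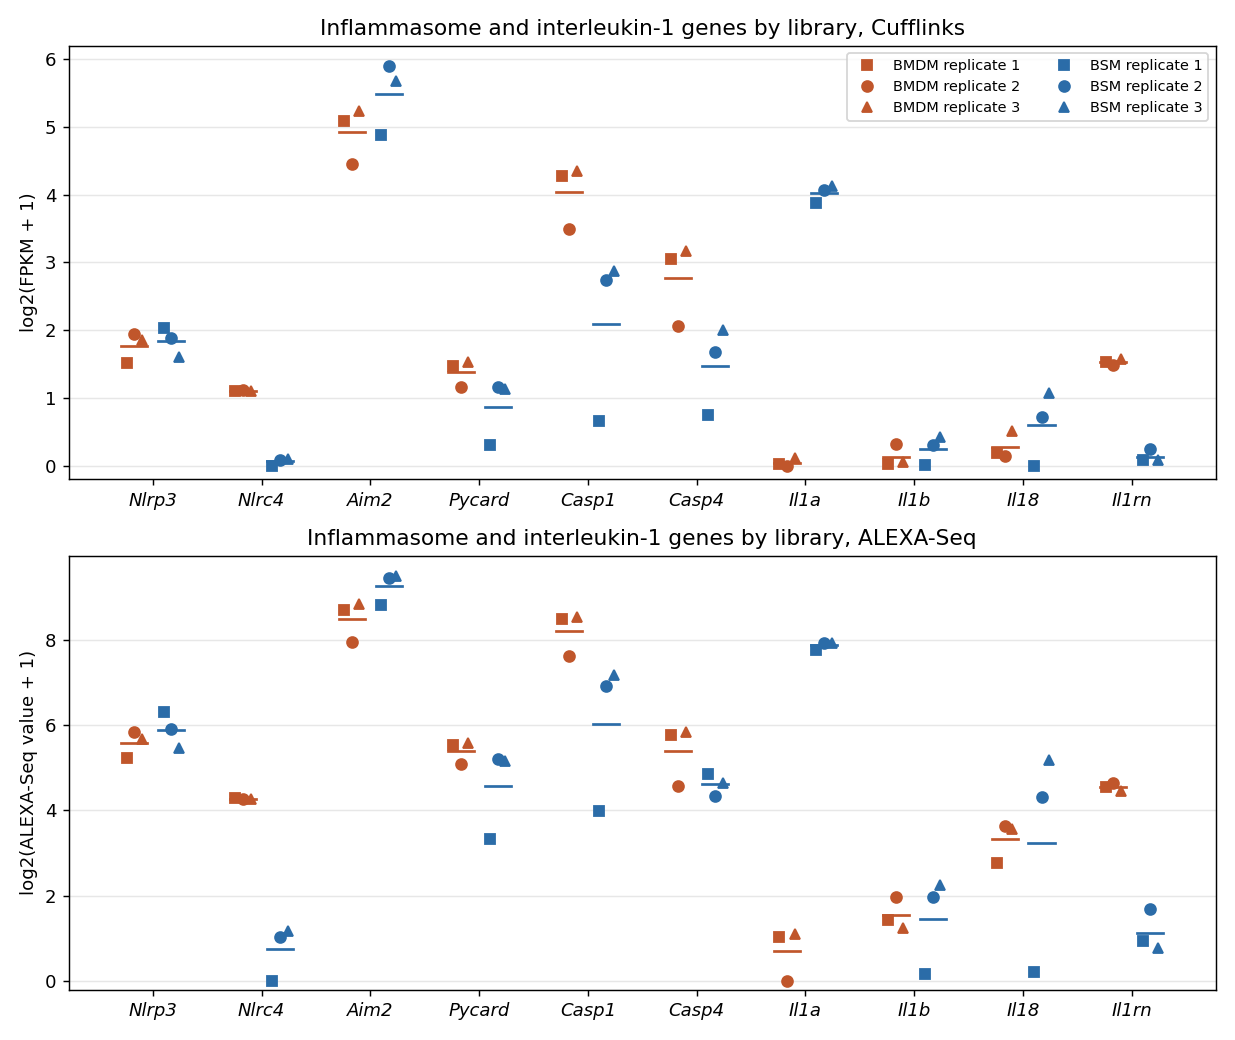
Levels of the 10 genes in each library, as log2(FPKM + 1) from Cufflinks (upper plot) and as log2(value + 1) from ALEXA-Seq (lower plot). Each point is a library, BMDM in orange and BSM in blue, and bars are means of the 3 libraries. Il1a is near 0 in BMDM and at 13.7 to 16.4 FPKM in BSM, Nlrc4 and Il1rn are near 0 in BSM, and BSM replicate 1 (blue squares) lies below the other BSM libraries for Casp1, Pycard and Il18.

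Il1a encodes interleukin-1 alpha and spans chromosome 2 from 129125346 to 129135708 in the mm9 coordinates of the files. Its FPKM were 0.0175, 0 and 0.0877 in BMDM replicates 1 to 3 and 13.7, 15.7 and 16.4 in BSM replicates 1 to 3. The groups did not overlap, and the lowest BSM library had 156 times the FPKM of the highest BMDM library. The log2 fold change was -3.97 ± 0.22 (standard error, SE, from limma, 95% confidence interval -4.48 to -3.46) and an adjusted p of 9.44e-06 from limma, and relative to the median of the tested genes it was -4.78. After the 4 scalings it lay between -4.62 and -4.39, with an adjusted p of at most 1.39e-05 from limma. In ALEXA-Seq the values were 1.06, 0 and 1.15 in BMDM and 218, 243 and 243 in BSM, with a log2 fold change of -7.16 (limma adjusted p = 6.52e-05). As deposited, Il1a was the only tested gene of the set called there, where 47.9% of all tested genes were called. Nlrp3, Aim2, Pycard, Casp1 and Casp4 were tested and not called. Nlrc4, Il1b, Il18 and Il1rn were not among the genes tested there. Within a library, Il1a lay above 86.9% to 90.4% of the tested genes in BSM and above 0% to 2.3% of them in BMDM. Because the FPKM minimum of 3 was reached by Il1a only in BSM, a difference was implied once it was tested. In these sorted pools fewer cells with a transcript and less transcript per cell cannot be told apart, here or for any gene below. Among the immediate early genes 5 of 8 were also higher in every BSM library. This is to be read against the 66.8% of tested genes that were separate in either direction. The part of the immediate early genes in the level of Il1a was not tested. The sum of all 8 was highest in BSM replicate 1, at 1266 FPKM, and lowest in replicate 3, at 781, whereas Il1a was lowest in replicate 1 and highest in replicate 3.

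The Il1a row overlaps ENSMUSG00000085498 (Gm14023 in GENCODE M21), a gene on the opposite strand. Its FPKM were 0.0478, 0.0080 and 0 in BMDM and 3.61, 2.92 and 2.73 in BSM, a log2 fold change of -1.999 ± 0.28 (SE, limma adjusted p = 0.000804). Since counting by strand is not stated, reads from Il1a and from this gene cannot be told apart where they overlap. Matches to Gm14023 covered 11.4% of the longest Il1a transcript. The gene next to Il1a on the side away from Il1b, Ckap2l, was higher in the other cell type, at 5.53, 6.12 and 7.88 FPKM in BMDM and between 0.0088 and 0.112 in BSM. The 3 tested genes whose profile over the 6 libraries was most like that of Il1a, a search added after its values were seen, were Hpgds, Marcks and Atp8a2, with root mean square differences of 0.09, 0.10 and 0.10 on the centered log2 scale. Hpgds, which encodes the hematopoietic prostaglandin D synthase, had 0 to 0.0392 FPKM in BMDM and 13.4 to 18.1 in BSM.

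Il1b, at 129190306 to 129196875 on chromosome 2, encodes interleukin-1 beta, the main substrate of caspase-1 among cytokines. It had FPKM of 0.0234, 0.245 and 0.0401 in BMDM and 0.00834, 0.243 and 0.341 in BSM. The groups overlapped, every library was under an FPKM of 1, and Il1b was tested only with no filter on low values, where its log2 fold change was -0.11 (95% confidence interval -0.44 to 0.21, limma adjusted p = 0.579). ALEXA-Seq gave 1.71, 2.92 and 1.37 in BMDM and 0.118, 2.95 and 3.74 in BSM, with an interval of -1.58 to 1.76 for the log2 difference. An opposite-strand gene, ENSMUSG00000074805 (Il1bos), overlaps its row and had 0.561, 0.205 and 0.138 FPKM in BSM and at most 0.0802 in BMDM. The tested genes with profiles most like that of Il1b were Wnk1, Cugbp1 and Camsap1l1, at root mean square differences of 0.05, 0.07 and 0.09 over the 6 libraries. The Il1b profile itself spanned only 0.41 on that log2 scale, and the 3 genes differed between the cell types by -0.17 to -0.04 (limma adjusted p of 0.533 or more).

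Il18, at 50383378 to 50389942 on chromosome 9, encodes the other caspase-1-dependent cytokine. Its FPKM were 0.138, 0.105 and 0.434 in BMDM and 0, 0.655 and 1.10 in BSM. With the minimum lowered to an FPKM of 1, the log2 fold change was -0.32 (95% confidence interval -1.02 to 0.39, limma adjusted p = 0.417), and without BSM replicate 1 it was -0.62 (limma adjusted p = 0.0364). That minimum was reached only in BSM replicate 3, so that the filter favored a difference in that direction. Leaving out BSM replicate 1 also took out the BSM value of 0. ALEXA-Seq gave the same contrast among the BSM libraries, with 0.161 in replicate 1 and 19.0 and 35.1 in replicates 2 and 3, against 5.77, 11.5 and 10.8 in BMDM. BSM thus held both the lowest and the highest Il18 values of the series in each table.

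Il1rn and Nlrc4 had the opposite pattern to Il1a. Il1rn encodes the interleukin-1 receptor antagonist and lies at 24192373 to 24207014 on chromosome 2. Its FPKM were 1.88, 1.79 and 1.99 in BMDM and 0.0575, 0.187 and 0.0596 in BSM. The lowest BMDM library had 9.62 times the FPKM of the highest BSM library, and the 3 BMDM values lay within 0.2 of each other. Since every value was under 3, Il1rn was tested with an FPKM minimum of 1, among 9637 genes of which 44.9% were called in either direction and 37.2% were called higher in BMDM. There its log2 fold change was 1.39 ± 0.20 (SE, limma adjusted p = 0.00121), against a median of 0.58 for those genes, and between 0.89 and 1.08 after the 4 scalings, with limma adjusted p values of at most 0.0175. In ALEXA-Seq, where it was tested with no filter on low values, it had 22.4, 24.1 and 20.9 in BMDM and 0.914, 2.23 and 0.705 in BSM, a log2 fold change of 3.42 (limma adjusted p = 0.00556).

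Nlrc4, at 74825635 to 74858448 on chromosome 17, encodes the sensor that responds with NAIP proteins to bacterial flagellin and secretion systems. Its FPKM were 1.14, 1.16 and 1.15 in BMDM and 0, 0.0640 and 0.0775 in BSM, and ALEXA-Seq also listed it at 0 in BSM replicate 1. The BMDM libraries all lay above the BSM libraries, the lowest at 14.7 times the highest BSM value. The log2 fold change was 1.04 ± 0.19 (SE, limma adjusted p = 0.00387, FPKM minimum of 1) and 0.69 to 0.80 after the 4 scalings, with limma adjusted p values of at most 0.0192. ALEXA-Seq with no filter gave a log2 fold change of 3.53 (limma adjusted p = 0.00812). Il1rn and Nlrc4 reached the minimum only through BMDM, so that each had to differ once tested. Both are also transcribed in neutrophils. Granulocyte markers summed to 71.2, 362 and 112 FPKM in BMDM replicates 1 to 3. Nlrc4 differed by 0.03 FPKM at most among those libraries, and Il1rn was lowest in replicate 2. The part of granulocytes in the levels of Nlrc4 and Il1rn was not tested.

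Casp1, the inflammasome protease, and Casp4, which encodes the caspase that binds cytosolic lipopolysaccharide and is also called caspase-11 in the mouse, lie side by side on chromosome 9, at 5298517 to 5307265 and 5308865 to 5336766. Casp1 had FPKM of 18.3, 10.3 and 19.3 in BMDM and 0.580, 5.67 and 6.33 in BSM. The groups did not overlap, but the lowest BMDM library was only 1.63 times the highest BSM library, and BSM replicate 1 lay far under the other BSM libraries. As deposited the log2 fold change was 1.95 ± 0.59 (SE, 95% confidence interval 0.59 to 3.30, limma adjusted p = 0.0239), which is 1.14 above the median of the tested genes. After the 4 scalings it was between 0.87 and 1.25 with limma adjusted p values of 0.146 to 0.347, so the call was lost under each of them. Without BSM replicate 1 it was 1.23 (limma adjusted p = 0.0104), and without BMDM replicate 1 or 3 it was 1.83 or 1.79 and the call was lost. ALEXA-Seq gave 355, 196 and 372 in BMDM and 15.0, 120 and 144 in BSM, with a log2 fold change of 2.18 (limma adjusted p = 0.0679).

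Casp4 had FPKM of 7.30, 3.18 and 8.02 in BMDM and 0.687, 2.20 and 3.02 in BSM. BMDM replicate 2 lay just above BSM replicate 3, and the log2 fold change was 1.28 ± 0.42 (SE, 95% confidence interval 0.30 to 2.27, limma adjusted p = 0.0338). The call was lost without BMDM replicate 1 or 3 and without BSM replicate 1 or 2, with log2 fold changes of 0.92 to 1.38. After the 4 scalings it was 0.32 to 0.66 with limma adjusted p values of 0.299 to 0.621, and ALEXA-Seq gave overlapping values of 53.6, 22.8 and 56.0 in BMDM and 27.8, 19.4 and 24.1 in BSM (log2 fold change 0.78, limma adjusted p = 0.181). BMDM replicate 2 had the lowest BMDM values of Casp1, Casp4, Pycard and Aim2. It had the highest granulocyte sum and also the highest lymphocyte and erythroid sums, at 8.50 and 38.4 FPKM. By the study's quality measures it came from the fewest cells and had the lowest share of mapped reads. The part of each of these in the values was not tested.

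Pycard, at 135135617 to 135137381 on chromosome 7, encodes the adaptor ASC. It had low FPKM of 1.78, 1.23 and 1.89 in BMDM and 0.233, 1.23 and 1.20 in BSM. BMDM replicate 2 and BSM replicate 2 were nearly equal, with a ratio of 1.00, and BSM replicate 1 alone was low. With an FPKM minimum of 1 the log2 fold change was 0.52 (95% confidence interval -0.16 to 1.20, limma adjusted p = 0.181), it was within 0.06 of the median of the genes tested there, and after the 4 scalings it lay between -0.15 and 0.09. ALEXA-Seq gave 45.3, 33.0 and 47.0 in BMDM and 8.99, 35.8 and 34.9 in BSM. Stretches of 100 bases or longer that matched another gene, Gm45205, at 95% identity covered 12.8% of the longest Pycard transcript, and for Nlrc4 such matches covered 3.8%. The longest transcripts of Nlrp3, Aim2, Casp1, Casp4, Il1b, Il18 and Il1rn had no such match.

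Aim2 and Nlrp3 were the sensors present in both cell types. Aim2, which binds double-stranded DNA in the cytosol, had the highest FPKM of the set in both, with 32.8, 21.0 and 36.7 in BMDM and 28.4, 58.6 and 50.2 in BSM. The groups overlapped through BSM replicate 1, and the log2 fold change was -0.56 ± 0.34 (SE, 95% confidence interval -1.35 to 0.23, limma adjusted p = 0.196). Without BSM replicate 1 it was -0.86 (limma adjusted p = 0.0278), and after the 4 scalings it was between -1.84 and -1.33 with limma adjusted p values of at most 0.0220, so that relative to the other genes of a library Aim2 was called higher in BSM. In ALEXA-Seq, with 414, 246 and 459 in BMDM and 451, 696 and 716 in BSM, the log2 fold change was -0.75 (limma adjusted p = 0.0840). Aim2 lay above 84.4% to 92.0% of the tested genes within the BMDM libraries and above 94.3% to 97.8% within the BSM libraries. Its row in the files spans 175281010 to 175396171 on chromosome 1 and overlaps Cadm3 on the opposite strand, which was at most 0.448 FPKM in any library.

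Nlrp3, at 59355070 to 59380458 on chromosome 11, encodes the sensor of potassium efflux, crystals and membrane damage. Its FPKM were 1.85, 2.85 and 2.62 in BMDM and 3.11, 2.69 and 2.04 in BSM. It passed the FPKM minimum only through BSM replicate 1. The groups overlapped and the log2 fold change was -0.07 ± 0.26 (SE, 95% confidence interval -0.66 to 0.52, limma adjusted p = 0.830), while relative to the median of the tested genes it was -0.88. After the scalings it was -1.01 to -0.68, with limma adjusted p values of 0.0146 to 0.0517 and a call higher in BSM under 3 of the 4. ALEXA-Seq values of 36.6, 56.5 and 50.2 in BMDM and 77.6, 58.9 and 43.2 in BSM also overlapped (log2 fold change -0.30, limma adjusted p = 0.471). Within a library, Nlrp3 lay above 16.9% to 20.3% of the tested genes in BMDM and above 34.8% to 53.6% in BSM.

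**Figure D2:**
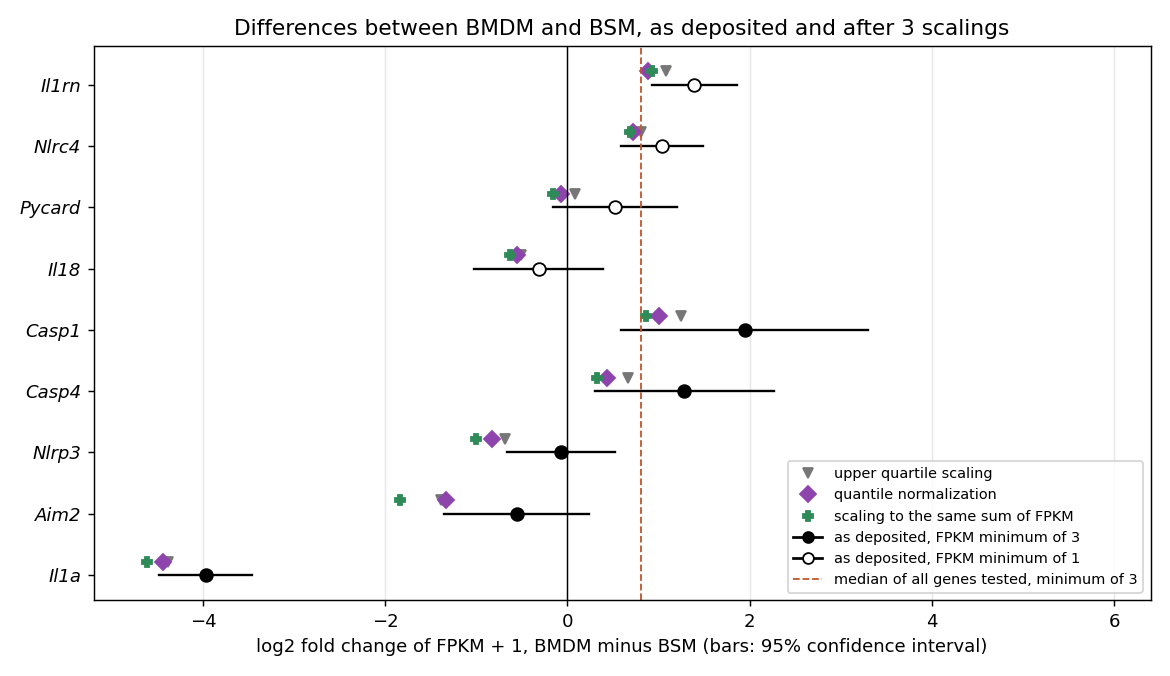
Log2 fold changes of FPKM + 1 (BMDM minus BSM, horizontal axis) of the 9 genes that reached an FPKM of 1. Filled circles are genes tested with the FPKM minimum of 3, open circles those tested with the minimum of 1, bars are 95% confidence intervals, colored symbols are the values after 3 of the scalings, and the dashed line is the median of 0.81 of the genes tested with the minimum of 3. Il1a stays near -4 and Il1rn and Nlrc4 stay above 0 under each setting shown, whereas Casp1 and Casp4 move towards 0 and Aim2 and Nlrp3 away from it.

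The order of levels within each cell type followed from these values. In BMDM the order of mean FPKM was Aim2, Casp1, Casp4, Nlrp3, Il1rn, Pycard, Nlrc4, Il18, Il1b and Il1a. The ranges of neighbors in that order were separate between Aim2 and Casp1, Casp1 and Casp4, Casp4 and Nlrp3, Pycard and Nlrc4, and Nlrc4 and Il18, and overlapped for the other pairs. In BSM the order was Aim2, Il1a, Casp1, Nlrp3, Casp4, Pycard, Il18, Il1b, Il1rn and Nlrc4. Only Aim2 and Il1a, and Il1a and Casp1, had separate ranges there. In total 3 of the 5 members tested with the minimum of 3 were called in the FPKM table, which is to be read against the 54.5% of all tested genes.

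Ratios between 2 genes of the same library do not depend on how libraries are scaled against each other. The ratio of Casp1 to Pycard FPKM was 10.3, 8.35 and 10.2 in BMDM and 2.49, 4.601 and 5.28 in BSM. Every BMDM library lay above every BSM library, with a log2 difference of 1.29 ± 0.35 (SE) and a two-sided exact permutation p of 0.1, the smallest that 3 against 3 libraries allow. In the same test the ratio of Il1b to Il1rn was also separate between the cell types. It was 0.0124, 0.136 and 0.0202 in BMDM and 0.145, 1.303 and 5.73 in BSM (log2 difference -4.98, standard error 1.87, exact permutation p = 0.1), although BMDM replicate 2 and BSM replicate 1 nearly met and both genes were under 0.35 FPKM in BSM. The ratios of Nlrp3 to Pycard and of Casp4 to Casp1 overlapped (exact permutation p = 0.3 for each), and both were highest in BSM replicate 1, at 13.3 and 1.19. Over these 4 tested ratios the adjusted p values of the exact permutation test were 0.2, 0.2, 0.3 and 0.3.

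The remaining 3 ratios involved a value of 0 and were not tested. The ratio of Il1b to Il1a was 1.34 and 0.458 in BMDM replicates 1 and 3 and 0.00061, 0.0154 and 0.0208 in BSM, so Il1a exceeded Il1b in each BSM library. For Nlrc4 to Nlrp3 it was 0.614, 0.409 and 0.436 in BMDM, and 0.0238 and 0.0379 in BSM replicates 2 and 3. The ratio of Il1b to Il18 overlapped between the cell types, at 0.0924 to 2.33 in BMDM and 0.309 and 0.371 in BSM replicates 2 and 3.

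**Figure D3:**
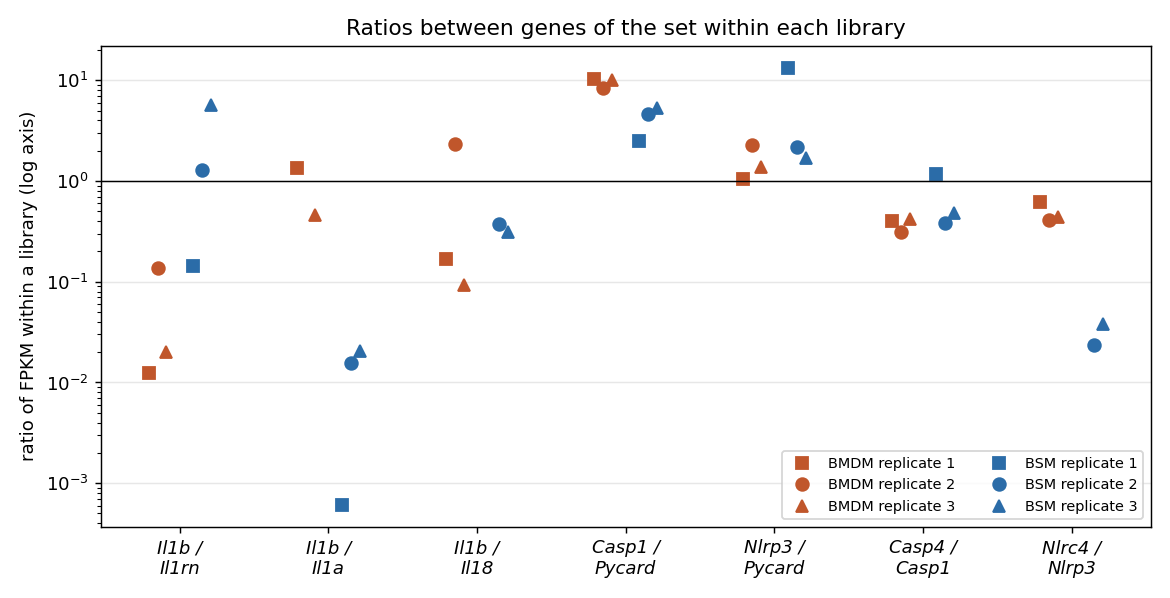
Ratios of FPKM between genes of the set within each library, on a log axis, with BMDM in orange and BSM in blue and a point for each library. A ratio with a value of 0 has no point. Casp1 to Pycard and Il1b to Il1rn are separate between the cell types, and the blue square of BSM replicate 1 is the highest for Nlrp3 to Pycard and for Casp4 to Casp1.

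The other genes of the pathway, 53 of 60 listed symbols with a row in the table, were compared in the same way. Of these, 23 were tested with the FPKM minimum of 3, 12 were called in favor of BMDM, 4 in favor of BSM, and 7 did not pass the threshold, to be read against the 45.3% and 9.22% of all tested genes called in these directions. Their median log2 fold change was 0.74 against 0.81 for all tested genes. Of the 16 calls, 8 were made in the same direction after all 4 scalings, namely Mefv, Ifi204, Pstpip1 and Irak3 higher in BMDM and Txnip, P2rx7, Card6 and Il1rl2 higher in BSM. With a library left out, Naip2, Naip6, P2rx7 and Traf6 kept a call in 1 or 2 of 6 fits (highest limma adjusted p between 0.115 and 0.151), Card6 in 3 and lost it without any of the BMDM replicates, Brcc3 in 5 (lost without BMDM replicate 2), and 9 calls were kept in each. Ifi204, Mefv, Naip2, Nlrp1a, Pstpip1, Gbp2, Irak3 and Traf6 reached the minimum of 3 only in BMDM, and Il1rl2 and Card6 only in BSM, so that the filter favored a difference in that direction and their calls and the counts are a description. Genes are named by their mean FPKM within each list, and Pstpip1, Gbp2, Card6, Nlrp1a, Irak3 and Traf6 were added after their values were seen to complete the lists of calls.

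Of 12 other sensors and their partners, 6 were tested and 5 were called higher in BMDM (Ifi204, Naip6, Mefv, Naip2 and Nlrp1a). Ifi204, an interferon-inducible relative of Aim2 that senses DNA, had FPKM of 21.6, 13.04 and 24.0 in BMDM and 0.0278, 1.08 and 1.25 in BSM (log2 fold change 3.56, limma adjusted p = 0.000214). Mefv, which encodes the sensor pyrin, had 4.22, 10.0 and 7.01 in BMDM and was listed at 0, 0 and 0.0348 in BSM (log2 fold change 2.93, limma adjusted p = 0.000258). Naip6 and Naip2, whose proteins pass bacterial ligands to NLRC4, had log2 fold changes of 0.81 and 0.74 (limma adjusted p = 0.0311 and 0.0271), neither of them called after any of the 4 scalings, which gave values on both sides of 0. Near-identical copies in other genes covered 65.9% of the longest Naip6 transcript, 86.9% of that of Naip5, 13.7% of that of Naip2 and 59.4% of that of Ifi204, so their reads may be divided between genes.

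Among 9 genes of activation and regulation, 7 were tested, of which Brcc3, Pstpip1 and Gbp2 were called higher in BMDM and Txnip, P2rx7 and Card6 higher in BSM. Txnip, which encodes a thioredoxin-binding protein reported to bind NLRP3, had FPKM of 22.8, 30.6 and 21.5 in BMDM and 196, 183 and 162 in BSM (log2 fold change -2.81, standard error 0.23, limma adjusted p = 5.27e-05). P2rx7, the ATP receptor upstream of NLRP3, had 3.47, 7.26 and 4.22 in BMDM and 12.4, 9.44 and 7.30 in BSM (log2 fold change -0.86, limma adjusted p = 0.0477), with BMDM replicate 2 just under BSM replicate 3. Brcc3, a deubiquitinase of NLRP3, was at 11.2 to 12.1 in BMDM and at 0.265, 4.05 and 3.72 in BSM (log2 fold change 2.04, limma adjusted p = 0.0115), a call that remained under 1 of the 4 scalings. Nek7, the kinase that binds NLRP3, overlapped between the cell types, with 7.87 to 9.52 in BMDM and 3.47 to 7.96 in BSM (limma adjusted p = 0.274).

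Among the effector and cell death genes, Casp8 was the highest, at 26.2 to 30.7 FPKM in BMDM and 17.5 to 26.7 in BSM (limma adjusted p = 0.226), and it was called higher in BSM under 1 of the 4 scalings. Gsdmd, which encodes the pore-forming gasdermin D, was at 1.06, 1.49 and 1.38 FPKM in BMDM and 0.177, 1.00 and 0.997 in BSM, and its relative Dfna5 at 0.910 to 1.72 and 0.787 to 2.29, and neither reached the minimum of 3.

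None of the 6 other interleukin-1 family cytokines with a row reached an FPKM of 1, and Il33, Il1f6 and Il1f10 were at 0 in all 6 libraries. Of 9 receptors and soluble inhibitors, 8 were under an FPKM of 1 in every library. The exception was Il1rl2, the receptor subunit for interleukin-36, with 0.647, 1.83 and 1.92 FPKM in BMDM and 4.65, 10.8 and 11.2 in BSM (log2 fold change -1.97, standard error 0.38, limma adjusted p = 0.00396). Il1rap, the shared accessory chain of these receptors, was at 0.310 to 0.623 in BMDM and 0.0526 to 0.237 in BSM. Il18bp, the soluble inhibitor of interleukin-18, and Il1rl1, the receptor for interleukin-33, overlapped between the cell types at 0.616 FPKM or less. Of 11 genes of receptor signaling, 7 were tested and Irak4, Irak3 and Traf6 were called higher in BMDM. Irak4, the kinase that MyD88 recruits first, had 12.04, 10.3 and 10.6 FPKM in BMDM and 0.567, 3.32 and 3.10 in BSM (log2 fold change 1.98, limma adjusted p = 0.00463) and was called under 1 of the 4 scalings. Map3k7ip2, Map3k7 and Irak1 were not called as deposited, with limma adjusted p values of 0.944, 0.421 and 0.248, while Map3k7ip2 and Map3k7 were each called higher in BSM under 1 of the 4 scalings.

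**Figure D4:**
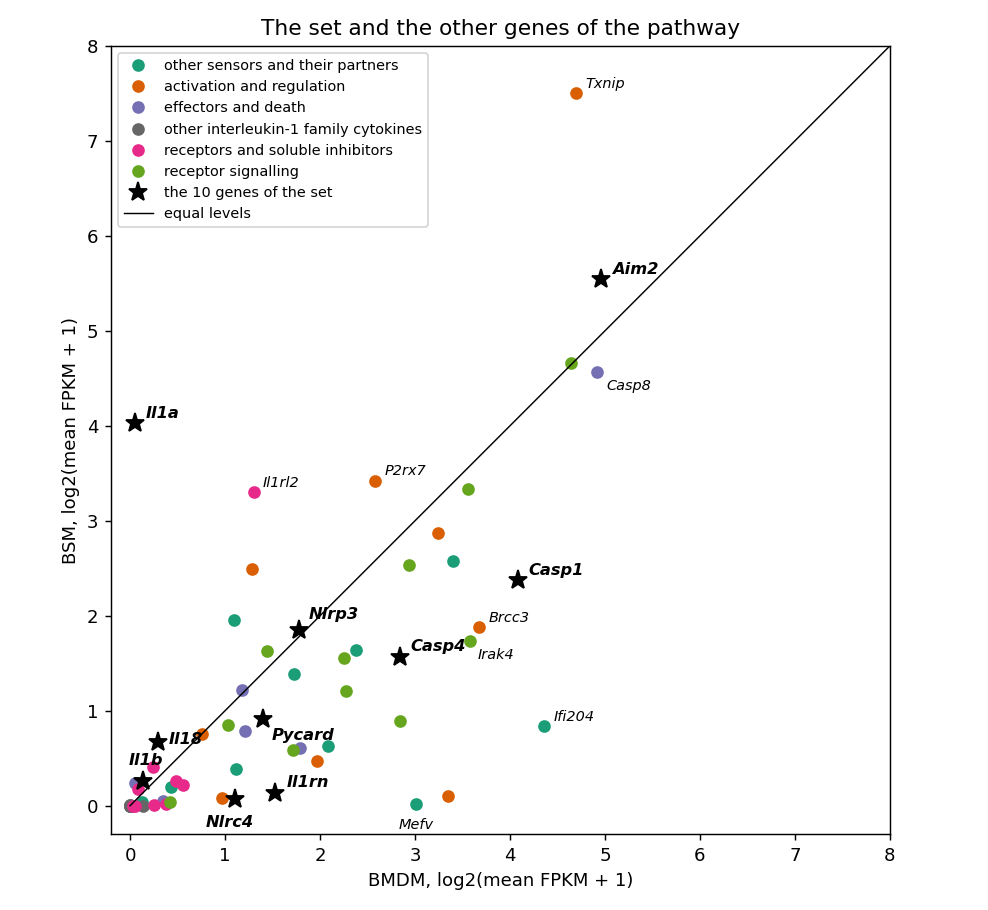
Levels in BSM (vertical axis) against BMDM (horizontal axis) as log2(mean FPKM + 1) over 3 libraries each, for the 10 genes of the set (stars) and the 53 other pathway genes (circles, colored by list). The line marks equal levels. Il1a, Txnip and Il1rl2 lie above the line, Ifi204, Mefv and Casp1 below it, and Aim2 and Nlrp3 close to it.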

How the data were processed

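RNA was amplified with the Ovation RNA-Seq method and sequenced as paired-end reads. According to the submitters' processing notes, CASAVA 1.7.0, Bowtie 0.12.7, TopHat 1.3.1, Cufflinks 1.0.3 and mm9 were used, and the authors deposited FPKM from Cufflinks for each gene and library. The authors also deposited an ALEXA-Seq signal, on a linear scale whose normalization is not given in the sources used here. Neither table holds read numbers for a gene, so the reads behind a single value are not given, although the study lists the mapped reads of each library. An exact 0 can be a failed estimate. Starts in the files are counted from 0 and are given here counted from 1.

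Groups came from the sample labels. FPKM were tested with limma 3.58.1 (R 4.3.3) with a mean-variance trend, as log2(FPKM + 1), and the ALEXA-Seq signal on log2(value + 1) for the 6364 genes with the highest values. Single ratios were tested by exact permutation, two-sided. The fit across genes was checked on simulated data. Nothing states that pools shared no cages or days, so p-values measure only the spread between these pools. Genes were named by rule: the 10 genes of the set, up to 4 genes of highest mean FPKM in each pathway list, and the 3 genes most like Il1b. The genes and lists were chosen with earlier results of these data known. Alternatives were a pseudocount of 0.1, FPKM minimums of 1 or none, 4 scalings, no trend, library quality weights, a replicate block and leaving out each library. The minimum of 1 combined with scaling, block or left-out libraries was added after seeing the data. Promoter windows came from RefSeq, and copies were sought with blastn in GENCODE M21. 1 gene of the pathway lists is counted but not reported here by name. The Exon arrays were not used here. Python 3.11.15, pandas 2.3.3 and matplotlib 3.10.9 were used.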

Additional observations from a re-analysis of the deposited data

Results flagged for a closer look

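By the sample labels, the male pools (replicate 1) and the female pools (replicates 2 and 3) gave opposite directions for some genes, in that the male pair of libraries differed one way and each female pair the other. Pairs were formed by replicate number, which is not known to link the samples, and some female pairs were nearly equal. The difference between the sexes was not tested, since each cell type has 1 male pool, and it cannot be told apart from the library of BSM replicate 1. On the log2(value + 1) scale, BMDM minus BSM, Aim2 differed by 0.20 in the male pools and by -0.94 in the mean of the female pools in FPKM. In ALEXA-Seq the Aim2 differences were -0.12 and -1.07, in the same direction. Il18 differed by 0.19 and -0.57 in FPKM and by 2.54 and -1.14 in ALEXA-Seq. For Il1b the ALEXA-Seq values were 1.28 and -0.51, but 1 female pair differed by only -0.0094. In FPKM Il1b had 0.021 and -0.18, with the highest female pair at 0.0021. Among the other pathway genes named, Dfna5 had -0.61 and 0.32, Map3k7 had -0.35 and 0.58, and Il1rl1 had 0.015 and -0.26, all in FPKM. The female pair closest to 0 differed by 0.024 for Dfna5 and by -0.0079 for Il1rl1. Il1a, Il1rn and Nlrc4 had the same direction in both sexes, with FPKM differences of -3.85 and -4.03, 1.45 and 1.37, and 1.10 and 1.01.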

How the results depend on the processing

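The calls of Il1a in both tables kept their direction and their side of the threshold under each alternative. Those of Il1rn and Nlrc4, with an FPKM minimum of 1, also did so in the alternatives run for them. These were no filter on low values, the 4 scalings, the block, each library left out, and ALEXA-Seq with no filter. A pseudocount of 0.1, no trend and library quality weights were not run for Il1rn and Nlrc4. As deposited, 3 genes of the set were called in FPKM, and 1 was called with a pseudocount of 0.1 and 5 with an FPKM minimum of 1. Over all genes, 3470 of 6364, 3224 of 6364 and 4323 of 9637 were called under these settings. Leaving out a library gave 1 to 3, with 1 without BMDM replicate 1 or 3. Calls over all 6364 genes then numbered 2498 to 3932, with 2989 without BMDM replicate 1 and 2498 without replicate 3. In ALEXA-Seq 1 gene was called, 3 with no filter on low values, 3 with upper quartile scaling, 3 with quantile normalization, 3 with the same sum of values, 5 with library quality weights (where 5362 of the 6364 genes were called, against 3050 without), and 1 to 3 with a library left out (3 without BSM replicate 1, 2 without BSM replicate 3). Over all genes ALEXA-Seq called 3285 of 22980 with no filter. Of 6364 it called 2362 with upper quartile scaling, 2789 with quantile normalization and 2771 with the same sum. It called 3984 without BSM replicate 1 and 2620 without BSM replicate 3. Of the pathway genes 12 were higher in BMDM, and 6 with upper quartile scaling, 6 with quantile normalization, 4 with the same sum of FPKM, 5 with the same sum without mitochondrial genes, and 8 to 13 with a library left out. Among all 6364 genes the calls higher in BMDM also fell after scaling. They numbered 2883 as deposited, 1380, 1370, 973 and 1286 after these scalings in turn, and 2037 to 3194 with a library left out. Higher in BSM were 4, and 2 with no filter, 8 with the same sum of FPKM, and 2 to 4 with a library left out (2 without BMDM replicate 1 or 3). Among all genes the calls higher in BSM were 587 of 6364 as deposited and 712 of 21167 with no filter. They were 1582 of 6364 with the same sum of FPKM and 461 to 738 with a library left out.

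Directions turned for values that were not called. Nlrp3 had a log2 fold change of 0.058 without BMDM replicate 1 and 0.026 without BSM replicate 1. In ALEXA-Seq, quantile normalization and the same sum gave -0.19 and -0.40 for Pycard and -0.00053 and -0.47 for Casp4, and Il18 had 0.085 with no filter. With an FPKM minimum of 1, Pycard had -0.071 after quantile normalization and -0.15 with the same sum. The cause was not tested. The log2 ratios kept their direction: with a library left out, Il1b to Il1rn lay between -6.40 and -3.74, Casp1 to Pycard between 0.96 and 1.4998, Nlrp3 to Pycard between -1.85 and -0.37 and Casp4 to Casp1 between -1.02 and -0.21.

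Same-numbered libraries did not deviate alike: their deviations from the group means correlated at -0.02, -0.01 and 0.13, and only the libraries numbered 3 correlated best with each other. With 3 libraries in each group these correlations cannot show whether the samples were paired. With the replicate number as a block, 3 genes of the set were called, and 12 pathway genes in favor of BMDM and 3 of BSM. Over all 6364 genes 3471 were then called, 2905 in favor of BMDM and 566 of BSM. ALEXA-Seq called 1 gene of the set with the block, against 2885 of 6364 over all genes. The paired exact permutation p values of the 4 ratios were 0.25, 0.25, 0.5 and 0.25. With FPKM and no read numbers for single genes, the precision of levels under 1, such as those of Il1b and Il18, was not estimated.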
